A study of Mus musculus and Homo sapiens with 12 samples.

Results

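ORR1 elements are mouse LTR retrotransposons of the MaLR group, and the members described here are all rows of the mouse repeat table whose family is ERVL-MaLR and whose subfamily name starts with ORR1. They number 151094 of the 3158171 annotated repeat elements (4.78%), in 29 subfamilies, of which 14 are LTR parts and 15 are internal parts (names ending in -int). Counts in at least 1 library were listed for 7718 of them (5.11%). The libraries were m5C meRIP–seq of chromatin-associated RNA (caRNA), in which fragmented RNA is pulled down with an antibody against 5-methylcytosine before sequencing. Mouse embryonic stem (mES) cells that were wild type (WT) or Tet2 KO, lacking the dioxygenase TET2, gave 3 libraries each. Both lines were kept with serum, LIF, CHIR99021 and PD0325901, were passaged on gelatin to clear feeder cells, and were pulled down with the same antibody. The comparison asks how the loss of TET2 bears on m5C-marked RNA from these repeats. The study calls its replicates biological, while the labels do not say whether the 3 libraries of a genotype came from separate cultures, so the p-values measure the spread between these libraries.

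ORR1 elements do not encode a full set of retroviral proteins and depended on other elements for their spread. An element consists of LTRs around an internal part, and most copies in the genome are single LTRs left by recombination. MaLR LTRs are known as promoters and first exons of transcripts in mouse oocytes and early embryos, and the ORR1A lineage is younger than ORR1D to ORR1G. The table holds pulled-down RNA alone, so more RNA and more m5C per RNA cannot be told apart, and every level is relative to the other repeats. It lists no genes, so the cell type could not be checked with gene markers.

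Much of the ORR1 signal came from near-identical copies in a few regions, and the sequences are shown because reads from such copies are hard to place. How the counting treated reads that match several copies, and whether it used strand, is not given in the sources used here. On chromosome 2, 9 ORR1A0 elements of 2469 bases each fell into 3 sets of identical sequence, with 18 to 24 mismatches between sets. The window with the most differences is printed for 1 copy of each set, read from the GRCm38 genome (mm10 coordinates) along the element's strand. Capitals mark the 5 positions of this 120-base window that vary among the 9 copies.

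ORR1A0 copy 1, chr2:175288415-175288534 (+ strand): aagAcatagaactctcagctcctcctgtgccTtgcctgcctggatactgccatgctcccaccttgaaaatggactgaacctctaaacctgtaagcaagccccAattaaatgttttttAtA
ORR1A0 copy 2, chr2:175385985-175386104 (+ strand): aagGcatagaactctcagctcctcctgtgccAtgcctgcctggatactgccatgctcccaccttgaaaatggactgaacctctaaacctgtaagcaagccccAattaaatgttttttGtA
ORR1A0 copy 3, chr2:175483618-175483737 (+ strand): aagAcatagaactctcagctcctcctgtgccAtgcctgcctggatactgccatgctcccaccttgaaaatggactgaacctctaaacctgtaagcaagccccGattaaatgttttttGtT

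Copies 5 and 7 are identical to copy 1, copies 4, 6 and 8 to copy 2, and copy 9 to copy 3. The counts followed these sets. In WT 1, the set of copy 1 held 228.1 to 246.66 estimated counts per copy, the set of copy 2 held 51.2 to 90.77, and the set of copy 3 held 158.99 to 159.63. In WT 2 the ranges were 290.95 to 339.49, 126.68 to 180.27 and 21.95 to 38.1. In WT 3, by contrast, the set of copy 1 had 0 counts in all 3 copies while the other sets held 14.67 to 29.87. KO 1 showed the opposite, with 43.42 to 46.17 counts per copy in the set of copy 1 and at most 0.5 elsewhere. In KO 2 no copy exceeded 16.55 counts, and in KO 3 the copies held 49.12 to 111.87. Thus copies with the same sequence had similar counts within most libraries, whereas the order of the sets changed from library to library. Reads from identical copies cannot be assigned to 1 of them, so these values describe the sets.

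**Figure D1:**
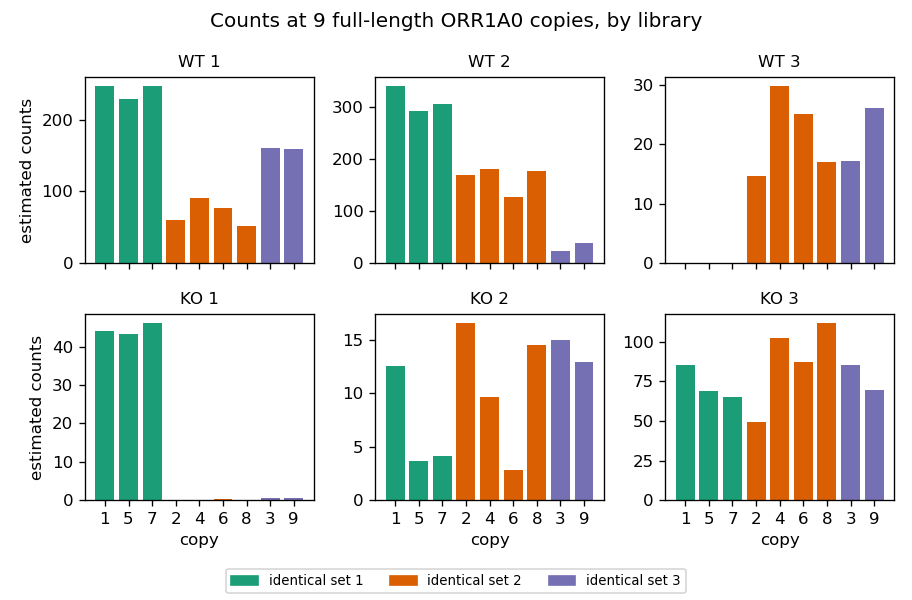
Estimated counts (vertical axis, with its own scale in each panel) at the 9 full-length ORR1A0 copies on chromosome 2 (horizontal axis), 1 panel per library, coloured by set of identical sequence. Set 1 (copies 1, 5 and 7) is empty in WT 3 and holds nearly all counts in KO 1.

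Levels are given as CPM (counts per 1000000 repeat counts), without further scaling except for subfamilies. Summed over these 9 copies and a shorter, similar one on the same chromosome, the ORR1A0 level was 602.2, 524.7 and 39.3 CPM in WT 1, 2 and 3. It was 78.4, 60.5 and 364.3 CPM in KO 1, 2 and 3. The groups overlapped, with 1 low library in WT and 1 high library in KO.

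The internal part of ORR1D on chromosome 12 behaved in a similar way. Of 9 ORR1D-int elements there with at least 50 counts, the 4 highest are shown in the window where they differ most, with the 16 varying positions in capitals.

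ORR1D-int copy 9, chr12:23620863-23620982 (- strand): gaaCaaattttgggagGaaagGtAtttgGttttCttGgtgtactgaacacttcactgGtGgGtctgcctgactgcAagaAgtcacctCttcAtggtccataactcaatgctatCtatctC
ORR1D-int copy 1, chr12:18867703-18867822 (+ strand): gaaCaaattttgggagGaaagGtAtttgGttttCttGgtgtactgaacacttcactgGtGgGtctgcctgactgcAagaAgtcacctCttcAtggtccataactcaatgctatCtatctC
ORR1D-int copy 2, chr12:19401605-19401724 (+ strand): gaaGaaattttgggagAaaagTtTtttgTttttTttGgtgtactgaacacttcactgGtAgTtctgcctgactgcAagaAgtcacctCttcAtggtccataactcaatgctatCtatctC
ORR1D-int copy 4, chr12:20316944-20317063 (+ strand): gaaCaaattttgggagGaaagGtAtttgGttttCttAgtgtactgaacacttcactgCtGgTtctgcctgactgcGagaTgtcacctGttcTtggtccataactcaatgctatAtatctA

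Copies 9 and 1 have the same letters throughout this window. Copy 9 held 472.75 counts in WT 1 and 528.45 in KO 1, against at most 14.4 in any other library. Copy 1 had 528.7 counts in KO 1 and 2.58 or fewer elsewhere. Copy 4 had 396.07 counts in WT 2 and 60.0 in KO 3. Which copy was high therefore changed between libraries of the same genotype, and WT 3 had 0 counts in all 9.

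Some annotated pieces are very short. The shortest ORR1 element with at least 100 counts has 14 bases, printed here whole, and lies on the minus strand inside the zinc finger gene Zfp781, in its sense orientation and outside exons.

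ORR1B1 fragment, chr10:81917757-81917770 (- strand): gttgtggagccaga

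It held 368.33 counts in KO 2 and 0 in the other 5 libraries. It was picked for display after its values were seen.

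Over all libraries the ORR1 share of repeat counts (DNA, LINE, LTR and SINE classes together) was small. It was 0.352%, 0.383% and 0.223% in WT 1, 2 and 3. It was 0.403%, 0.362% and 0.445% in KO 1, 2 and 3. The groups overlapped, because WT 2 lay above KO 2. The mean share was 0.319% ± 0.0849 in WT and 0.404% ± 0.0415 in KO (SD, n = 3 each). The difference of the mean log2 shares was 0.37 (exact two-sided permutation test over 20 assignments, p = 0.2, where 0.1 is the smallest p that the design allows).

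**Figure D2:**
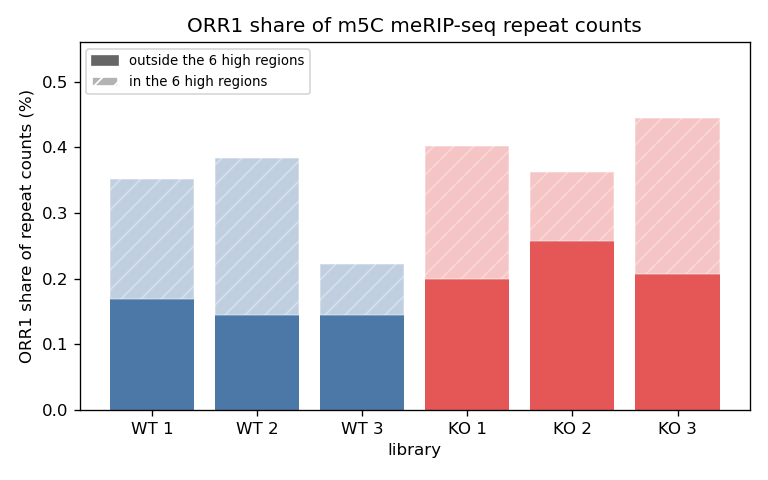
ORR1 share of repeat counts in percent (vertical axis) for the 3 WT (blue) and 3 KO (red) libraries, split into counts inside (hatched) and outside (solid) the 6 high regions. The total bars of WT and KO overlap, while the solid parts reach 0.145% to 0.170% in WT and 0.200% to 0.257% in KO.

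Related MaLR elements gave no clear contrast with ORR1. MT elements, another mouse MaLR group, held 1.67% ± 0.797 of repeat counts in WT and 1.79% ± 1.12 in KO. MLT1 elements, an older group shared among mammals, held 0.0591% ± 0.0254 and 0.0727% ± 0.0215. On the log2 scale ORR1 changed by 0.34 more than MT (exact permutation test, p = 0.6) and by 0.012 more than MLT1 (p = 1.0). Among the other ERVL-MaLR subfamilies 17 MT and 20 MLT1 subfamilies were tested with edgeR's quasi-likelihood test, no MST or MaLR subfamily had enough counts, and only MTA_Mm, which was lower in KO, passed an adjusted p of 0.05.

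The 6 regions with most ORR1 counts were found by taking 1-Mb windows with at least 1% of ORR1 counts and joining close ones, so their levels are a description and their boundaries were set with the data in view. They cover 20 Mb and hold 1242 ORR1 elements (0.822% of all). They held 51.7%, 62.1% and 34.9% of ORR1 counts in WT 1, 2 and 3 and 50.3%, 29.1% and 53.4% in KO 1, 2 and 3. Genes with a RefSeq transcript described as zinc finger made up 47 of the 253 protein-coding genes there (18.6%), against 688 of 21774 in the genome (3.16%). Of the 47, 32 lay in the chromosome 13 region, and the regions on chromosomes 14 and 4 held 0. Many proteins encoded in zinc finger gene clusters bind and silence retrotransposons, and the clusters are known to grow by tandem duplication.

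The region of the ORR1A0 copies, chr2:175000001-178000000, had the widest range of ORR1 level among the 6. Its ORR1 level was 599.6, 750.8 and 39.8 CPM in WT 1, 2 and 3. It was 80.2, 74.3 and 1148 CPM in KO 1, 2 and 3. In KO 3 an ORR1D1 pair and an ORR1A1 element added to the ORR1A0 copies: the ORR1A1 element had 544.5 counts there and 0 in each other library.

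Chromosome 13 held the steadiest of these regions. At chr13:62000001-68000000, led by ORR1B1-int and with 32 zinc finger genes among 77 coding genes, the ORR1 level was 503.3, 838.7 and 693.4 CPM in WT 1, 2 and 3. The KO libraries had 552.7, 587.8 and 525.0 CPM. The groups overlapped, with WT 1 the lowest and WT 2 the highest of the 6 libraries.

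The remaining regions swung between libraries of 1 genotype. Chromosome 12 (chr12:18000001-24000000, ORR1D-int) ran from 12.2 to 621.5 CPM over the WT libraries, and the KO libraries lay between 57.7 and 888.9. On chromosome 14 WT libraries held 32.1 to 266.6 CPM, and KO libraries 0 to 268.0. The ORR1 level on chromosome 4, led by ORR1A4-int, was at most 0.909 CPM in WT, and it was 317.2, 95.04 and 0 CPM in KO 1, 2 and 3. On chromosome 10, led by ORR1B1, the level was 0.940 to 58.8 CPM in WT and 186.7, 241.1 and 0.745 in KO 1, 2 and 3. On chromosomes 4 and 10, KO 1 and KO 2 thus lay above all WT libraries and KO 3 at or below them all. On chromosome 10 this rested on single elements. The 14-base ORR1B1 fragment shown above held 240.4 of the 241.1 CPM in KO 2 and 0 in KO 1, where 1 ORR1A2 element held 209.93 counts. The groups overlapped in each of these regions.

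**Figure D3:**
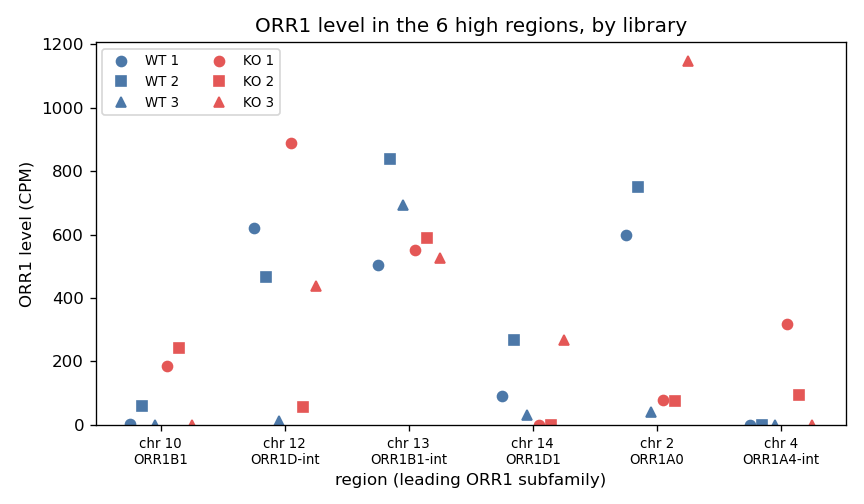
ORR1 level in CPM (vertical axis) in the 6 high regions (horizontal axis, with the leading subfamily), 1 symbol per library, WT in blue and KO in red. The chromosome 13 points stay between 503.3 and 838.7 CPM, whereas those of chromosome 2 run from 39.8 to 1148 and those of chromosome 12 from 12.2 to 888.9.

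Single libraries also dominated single elements. Of 165 ORR1 elements with at least 50 counts, 97 (58.8%) had at least 90% of them in 1 library. The same was true of 149 of 386 MT elements (38.6%) and 4116 of 28869 elements of the 4 classes (14.3%). The 10 highest ORR1 elements held 17.2% of ORR1 counts, the 50 highest 43.7% and the 100 highest 57.3%. Of the 165 elements, 112 had another ORR1 copy at least 95% identical over at least 90% of their length, and these held 75.3% of the counts of the 165.

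Outside the 6 regions 7492 ORR1 elements had counts, and the genotypes did not overlap in their summed share. On average the 304 of them with at least 10 counts held 0.0878% of repeat counts in WT and 0.126% in KO. All 7492 together held 0.153% and 0.221%. By library, the share of all 7492 was 0.170%, 0.145% and 0.145% in WT 1, 2 and 3 and 0.200%, 0.257% and 0.207% in KO 1, 2 and 3. Because the regions were taken out after their values had been seen, no test is given. Elements inside genes held 0.0568%, 0.0627% and 0.0571% of repeat counts in WT and 0.0876%, 0.113% and 0.116% in KO. Intergenic elements overlapped between genotypes, the WT libraries holding 0.0826% to 0.113% and the KO libraries 0.0913% to 0.144%. SINE elements, which are no ORR1 members, moved the same way, with 3.25% to 3.38% of repeat counts in KO libraries against 2.19% to 2.74% in WT libraries. So did DNA elements, with 0.155% to 0.291% in KO against 0.114% to 0.135% in WT. MT elements outside the 6 regions overlapped, at 0.992% to 3.03% in KO and 0.921% to 2.28% in WT. MLT1 elements there overlapped too, at 0.0506% to 0.0890% in KO and 0.0321% to 0.0825% in WT. Elements of all repeats with fewer than 10 counts in all held 3.53% to 3.89% in KO libraries against 2.75% to 3.56% in WT libraries. Total repeat counts also did not overlap, with 1532029 to 1999210 in KO libraries and 2199886 to 3318565 in WT libraries. The part of these shifts and of depth in the ORR1 values was not tested.

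Over all ORR1 elements, the following shares of the signal overlapped between the genotypes. Internal parts held 25.8% ± 11.3 of ORR1 counts in WT and 24.9% ± 13.9 in KO (exact permutation test, n = 3 each, p = 1.0). The young ORR1A lineage held 28.8% ± 11.8 and 27.0% ± 7.93 (exact p = 0.9). The older ORR1D to ORR1G lineages held 35.8%, 36.8% and 31.9% in WT 1, 2 and 3 and 42.3%, 36.3% and 47.2% in KO 1, 2 and 3 (exact p = 0.2). Elements inside genes held 39.7% ± 3.04 and 44.3% ± 8.27 (exact p = 0.4). Of the counts inside genes of 1 strand, 54.0% ± 18.97 in WT and 62.0% ± 6.02 in KO lay in elements oriented as the gene (exact p = 0.6), with the orientation taken from the annotation. Outside the 6 regions, where no test is given, the genic share was 33.5%, 43.2% and 39.4% in WT 1, 2 and 3 and 43.8%, 43.8% and 56.0% in KO 1, 2 and 3. The sense share of genic counts there was 47.9%, 49.7% and 34.4% in WT and 50.1%, 55.5% and 49.8% in KO. Neither overlapped, although WT 2 and the lowest KO library lay close together in both. Leaving out KO 3 raised the difference in the genic share of all ORR1 counts from 4.69 to 9.36 percentage points, and leaving out KO 2 lowered it to 1.51.

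At the level of subfamilies, no ORR1 subfamily passed the main test between the genotypes, and the spread between libraries was wide. Of 29, 25 had enough counts to be tested, and 0 passed an adjusted p of 0.05 in edgeR's quasi-likelihood test, against 11 of all 547 subfamilies tested (2.01%). At an unadjusted p under 0.05 there were 3 of 25, against 15.9% of all subfamilies, and DESeq2's Wald test called 1 of 25, against 10.2%. In CPM scaled by edgeR's TMM factors, the WT and KO ranges did not overlap in 3 of 25, against 21.6% of all. All subfamily CPM below carry this scaling, unlike the CPM of regions and single elements. The factors were 0.897 to 0.969 in WT libraries and 1.039 to 1.096 in KO libraries. The median log2 change was 0.27 over the 25 and 0.12 over all 547, with 16 above 0 and 9 below. The standard error exceeded the change itself in 14 of the 25 (56%), against 46.4% of all 547. ORR1A0-int, ORR1C1-int, ORR1F-int and ORR1G-int were not tested.

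**Figure D4:**
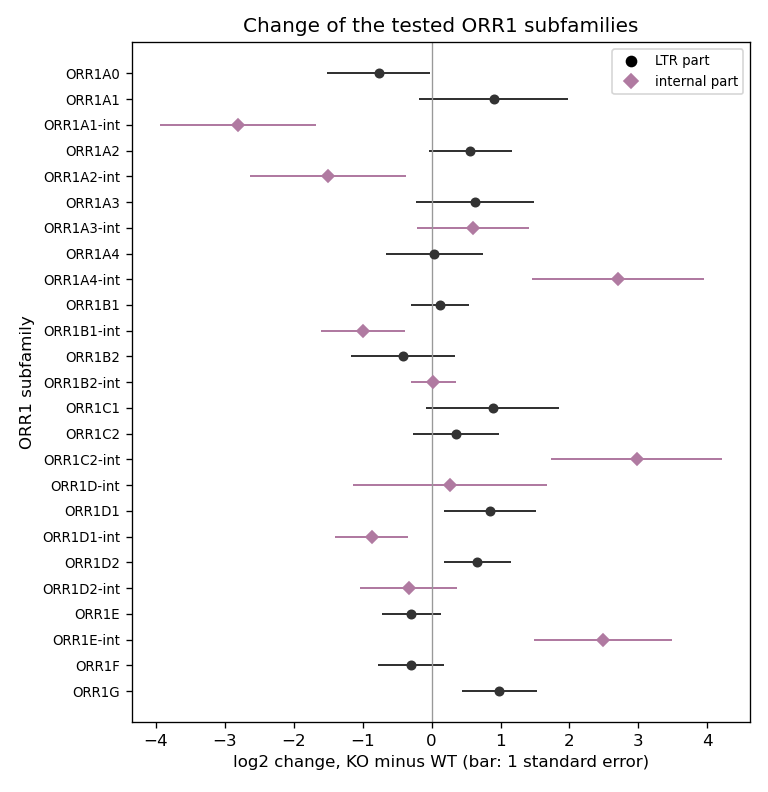
Log2 change of CPM, KO minus WT (horizontal axis), for the 25 tested ORR1 subfamilies (vertical axis), with bars of 1 standard error. The standard error is the size of the change divided by the square root of edgeR's F value. Circles are LTR parts and diamonds internal parts. The LTR parts lie between -0.77 and 0.98, and the internal parts between -2.81 and 2.97.

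The 4 subfamilies with the largest changes in size were internal parts, and none passed the edgeR test. ORR1A1-int was 88.8, 75.8 and 2.35 CPM in WT 1, 2 and 3 and 8.40, 8.64 and 4.57 CPM in KO 1, 2 and 3. WT 1 and WT 2 were thus above all KO libraries, and WT 3 was below them all. Its log2 change was -2.81 ± 1.13 (SE, edgeR adjusted p = 0.297), and it was the subfamily that DESeq2 called (adjusted p = 0.0361). One element on chromosome 13 held 67.6% of its counts, and 219.5 of the 228.58 counts in WT 2.

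ORR1C2-int was 4.70, 7.61 and 2.02 CPM in WT 1, 2 and 3 and 118.2, 5.56 and 6.86 CPM in KO 1, 2 and 3. Only KO 1 stood high, and 1 element gave 56.8% of its 211.22 counts. The log2 change was 2.97 ± 1.24 (edgeR adjusted p = 0.301).

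ORR1E-int was 5.63, 7.61 and 7.06 CPM in WT 1, 2 and 3 and 8.40, 11.7 and 106.0 CPM in KO 1, 2 and 3. The groups did not overlap, with KO 3 far above the rest and KO 1 and KO 2 close to WT. Its log2 change was 2.49 ± 1.00 (edgeR adjusted p = 0.297), and 1 element held 118.11 of the 231.71 counts in KO 3.

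ORR1A4-int was 19.3, 38.1 and 5.04 CPM in WT 1, 2 and 3 and 296.4, 116.1 and 9.60 CPM in KO 1, 2 and 3. KO 1 and KO 2 were above all WT libraries and KO 3 was not. The log2 change was 2.71 ± 1.25 (edgeR adjusted p = 0.321).

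The LTR parts, which make up 142876 of the elements, changed less. ORR1D2 did not overlap, with WT libraries at 94.3 to 120.4 CPM and KO libraries at 124.1 to 223.5 (log2 change 0.67 ± 0.48, edgeR adjusted p = 0.518). In KO 1 a single element on chromosome 18 gave 248.67 of its 399.27 counts. ORR1E lay the other way, with 131.1 to 156.8 CPM in KO libraries and 166.2 to 189.6 in WT libraries (-0.29 ± 0.43, edgeR adjusted p = 0.770). In WT 3 a single element on chromosome 3 gave 286.13 of its 563.89 counts. In CPM without the scaling the ORR1E genotypes overlapped, because KO 3 lay above all WT libraries. With library totals in place of the scaling, the log2 change of ORR1E was -0.11. Neither ORR1D2 nor ORR1E passed the test.

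Among the LTRs of the young ORR1A lineage, ORR1A0 averaged 471.2 CPM in WT and 276.2 in KO (log2 change -0.77 ± 0.75). ORR1A1 had means of 82.3 and 154.2 CPM (0.90 ± 1.08), ORR1A2 of 151.2 and 223.1 (0.56 ± 0.60), ORR1A3 of 29.7 and 46.4 (0.63 ± 0.85) and ORR1A4 of 146.0 and 149.5 (0.036 ± 0.70). In all of these the genotypes overlapped. ORR1A2-int (-1.50 ± 1.13) and ORR1A3-int (0.60 ± 0.81) overlapped as well.

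In the ORR1B and ORR1C lineages, ORR1B1 averaged 362.6 and 396.0 CPM in WT and KO (log2 change 0.13 ± 0.42) and its internal part 374.8 and 188.2 (-0.99 ± 0.61). ORR1B2 had a change of -0.41 ± 0.75, ORR1B2-int of 0.027 ± 0.33, ORR1C1 of 0.89 ± 0.97 and ORR1C2 of 0.36 ± 0.62. WT 2 alone, at 684.8 CPM, stood above every KO library for ORR1B1-int, and KO 2, at 430.4 CPM, did so against every WT library for ORR1C1.

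In the older lineages ORR1D1, the most abundant LTR part in KO, ranged from 198.2 to 586.5 CPM in WT and from 192.7 to 929.7 in KO (log2 change 0.84 ± 0.67). ORR1D-int ranged from 3.70 to 582.8 CPM in WT and from 62.4 to 815.1 in KO (0.27 ± 1.41). ORR1D1-int changed by -0.87 ± 0.53, ORR1D2-int by -0.33 ± 0.70, ORR1F by -0.30 ± 0.48 and ORR1G by 0.98 ± 0.55. All of these overlapped between the genotypes.

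At the level of single elements, 31 of the 7718 ORR1 elements with counts passed the filter on low counts, and 0 passed an adjusted p of 0.05 in edgeR, against 9 of all 19030 elements tested (0.0473%). At an unadjusted p under 0.05 there were 3 of 31, against 21.0% of all, and DESeq2 called 3 of 31, against 11.3%. The median log2 change was -0.33 over the 31 and 0.034 over all, and the median standard error was 1.42 against 0.565. Of the 31, 21 lay in the 6 regions.

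A pair of tested elements on chromosome 13 was taken from the 3 of lowest p in each direction. Their opposite directions therefore follow from the choice. ORR1B1-int at chr13:65757335-65760644, intergenic and 581 bases from Gm38428, held 9.08, 0.221 and 15.1 CPM in WT 1, 2 and 3 and 85.5, 41.6 and 73.1 in KO 1, 2 and 3. ORR1B1 at chr13:65909484-65912528, on the sense strand of Gm48219 and overlapping an exon, held 61.6, 12.8 and 30.5 CPM in WT and 8.23, 4.47 and 1.54 in KO. The genotypes did not overlap at either element taken alone. In the scaled CPM of the test, this was so for 3 of the 31 ORR1 elements, against 27.7% of all 19030 elements tested. The log2 changes were 3.16 ± 1.02 (edgeR adjusted p = 0.154) and -2.45 ± 0.77 (adjusted p = 0.147), and both were called by DESeq2 (adjusted p = 0.0155 and 0.0224). Both had copies at least 95% identical in the same region, and with those copies added the genotypes overlapped. How far reads were shared between these copies was not tested. The first is 99.0% identical to the ORR1B1 element at chr13:66165643-66168970, which held 477.49 counts in WT 3, and the pair together held 17.9, 0.621 and 158.9 CPM in WT 1, 2 and 3 and 166.2, 86.7 and 158.6 in KO 1, 2 and 3. The second is less similar to its 3 copies, at most 96.6% identical. Together with them it held 94.4, 58.0 and 121.5 CPM in WT and 52.5, 98.0 and 4.73 in KO. These sums were made after the values of the single elements had been seen.

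The third element called by DESeq2, an intergenic ORR1D2 on chromosome 18, held 7.27, 1.26 and 2.27 CPM in WT and 144.5, 6.44 and 18.3 in KO 1, 2 and 3 (log2 change 3.90 ± 1.205, edgeR adjusted p = 0.143). Next by p came an intergenic ORR1D2-int near Olfr1513 (1.31 ± 0.75, adjusted p = 0.363), and, lower in KO, ORR1A4-int inside Gm13912 (-1.54 ± 1.12, adjusted p = 0.466) and ORR1B1 near Gm48222 (-1.91 ± 1.39, adjusted p = 0.467).

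Of the 8 elements with the highest mean CPM, 6 were tested, and each was uneven between libraries of a genotype. ORR1B1-int at chr13:65542199-65544920 held 306.2 CPM in WT 2, 81.0 in WT 3 and 62.9 in KO 2, and at most 0.300 in the others. ORR1B1 at chr13:66165643-66168970 was highest in WT 3, at 143.9 CPM, and held 45.1 to 85.5 in the KO libraries. ORR1B1-int inside Gm26754, antisense to it, held 32.4 to 138.8 CPM in WT and 1.17 to 58.9 in KO (log2 change -1.38 ± 1.14, edgeR adjusted p = 0.522). The rest were ORR1D-int copies 9, 2 and 1, ORR1A0 copy 1 and an ORR1D1 element on chromosome 2 with 245.0 CPM in KO 3, 28.2 in WT 2 and 0 elsewhere.

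Of the 3 repeats taken as marks of 2-cell-like cells, which arise at low frequency in mES cell cultures, MERVL-int and MTA_Mm were lower in KO. MERVL-int held 17434 to 21010 CPM in WT and 3448 to 7758 in KO (log2 change -1.73 ± 0.28, edgeR adjusted p = 0.0293), and MTA_Mm 5369 to 6578 and 2006 to 3105 (-1.28 ± 0.19, adjusted p = 0.0229). MT2_Mm held 1306 to 2421 and 216.1 to 1072 CPM (-1.27 ± 0.57, adjusted p = 0.314). Their part in the ORR1 values was not tested.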

How the data were processed

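The deposited values are the authors' estimated counts per annotated repeat element, many of them fractional, with no input or spike-in column. The options that made them fractional and the use of strand in counting are not given in the sources used here. Per the methods and the submitters' processing notes, the reads behind them went through Trimmomatic 0.39, HISAT2 2.1.0 (mm10) and duplicate marking by Picard. Totals over the DNA, LINE, LTR and SINE classes were 2199886 to 3318565 in WT libraries and 1532029 to 1999210 in KO libraries. Depth thus did not overlap between the genotypes. ORR1 elements held 5553 to 12156 of these counts per library.

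Estimated counts were summed per subfamily or kept per element, rounded, filtered with filterByExpr, scaled by TMM and tested with edgeR 4.0.16 in R 4.3.3 (quasi-likelihood, prior count 2, Benjamini-Hochberg adjustment over all features). Shares were compared by exact permutation. DESeq2 1.42.0, other scalings, filters and left-out libraries were alternatives. Gene context came from GENCODE M21 on GRCm38, zinc finger genes from RefSeq, copies from BLAST 2.17.0 and alignments from MAFFT 7.526. All tested subfamilies were named, with the 8 elements of highest mean CPM and the 3 of lowest p in each direction. Members and lists were chosen with earlier results of these data known. The edgeR script was tested on simulated data, where it recovered a minority of the changed subfamilies and none of the changed elements, so the absence of calls does not show an absence of change. The human table was not used here.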

Additional observations from a re-analysis of the deposited data

How the results depend on the processing

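No ORR1 subfamily or element passed edgeR's test under any alternative scaling, filter, replicate block or left-out library that was run. DESeq2's Wald test called 1 subfamily and 3 elements, and the cause of this difference was not tested. Same-numbered WT and KO libraries deviated with correlations of -0.093, -0.035 and -0.045, and differently numbered ones with -0.023 to 0.069. No pairing by number was seen, but deviations within groups of 3 libraries cannot exclude shared handling. The replicate block gave 0 calls at both levels and a log2 share difference of 0.37 (paired exact p = 0.5). That difference kept its sign throughout, at 0.13 without WT 3 to 0.52 without WT 2, 0.17 as a share of LTR counts and 0.52 without the 6 high regions, a setting chosen after seeing the data. Against MT, the difference of 0.34 became 1.06 without the 10 highest elements (exact p = 0.1), and 0.059 without KO 3 to 0.82 without KO 1. The contrast with MLT1 was -0.19 with elements of at least 10 counts, and -0.52 to 0.49 when 1 library was left out. The internal share differed by 1.71 percentage points without the 3 highest ORR1 elements, 4.93 without the 6 regions, and -8.80 to 4.73 with 1 library left out. Leaving out 1 library gave -8.31 to 3.09 points for the ORR1A share and -0.727 to 18.1 for the sense share. The genic share differed by 1.51 points without KO 2, 9.36 without KO 3 and 9.20 without the 6 regions, and the ORR1D to ORR1G share by 4.45 without KO 3, 9.94 without KO 2 and 2.23 without the 6 regions, against 4.69 and 7.10.

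Of the 25 subfamily changes, 13 kept their sign under all alternatives and 12 did not. With 1 library left out, the log2 change spanned -0.74 to 1.42 for ORR1A1, -2.002 to 0.86 for ORR1A2-int, -0.70 to 1.02 for ORR1A3, -0.67 to 1.02 for ORR1A3-int, -0.32 to 0.78 for ORR1A4, -0.12 to 0.59 for ORR1B1 and -1.07 to 0.10 for ORR1B2. It spanned -0.20 to 0.14 for ORR1B2-int, -0.90 to 1.32 for ORR1C1, -0.020 to 0.89 for ORR1C2, -0.63 to 0.86 for ORR1D-int and -0.76 to 0.51 for ORR1D2-int. Of those that kept their sign, ORR1C2-int fell to 0.33 without KO 1, ORR1E-int to 0.51 without KO 3, ORR1A4-int to 1.56 and ORR1A2 to 0.070 without KO 1, and ORR1D1 to 0.39 without KO 3. ORR1B1-int and ORR1D1-int were -0.24 and -0.20 without WT 2, ORR1A0 -0.36 without KO 2 and ORR1F -0.092 without WT 1. A looser filter gave -0.022 for ORR1A4 and -0.035 for ORR1B2-int, for which DESeq2's Wald test gave -0.019 and its size factors in edgeR -0.0079. Near-identical copies, unstated counting options and 3 libraries a group limit what can be resolved.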
